A study of Drosophila melanogaster with 3 samples.

Results

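The 73 genes described here encode proteins of the mitochondrial ribosome of Drosophila melanogaster. They are the protein-coding genes of the Ensembl annotation whose symbol starts with mRpL, for the large subunit, or mRpS, for the small subunit. They make up 73 of 13945 protein-coding genes on the 6 chromosome arms, with 47 large-subunit and 26 small-subunit genes. The subunit, here and below, was read from the symbol only. Membership follows from the gene symbol alone, although the set was proposed with earlier results of these data known. Mitochondrial ribosomal proteins filed under another symbol, such as tko, the counterpart of bacterial ribosomal protein S12, fall outside it.

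The measurement was ChIP-seq, in which an antibody recovers a protein together with the DNA it is bound to or near. Whole prepupae, animals between the larva and the pupa, stably expressed the protein CG8319 with GFP fused to its C terminus, and an antibody against GFP was used. Males and females were pooled, their age was given as unknown, and all 3 biological replicates came from 1 transgenic line. This 1 group has no untagged or untreated counterpart analysed here, so nothing below is a comparison of conditions and no p-value is given. Shares of genes are set beside the same share over all protein-coding genes, as a description. Whole animals mix many cell types, and a peak does not show in which of them it arose.

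Mitochondria make a small set of respiratory chain proteins on their own ribosomes. The RNA of these ribosomes is encoded in mitochondrial DNA, whereas every protein of both subunits is encoded in the nucleus, made in the cytoplasm and imported. Some of these proteins descend from the ribosome of the bacterial ancestor, and others exist only in mitochondrial ribosomes. In Drosophila, loss of single members slows growth or is lethal, and a mutation in tko is known for seizures after mechanical shock.

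A gene was called bound when the summit of a peak in the optimal list lay within 500 bp of any of its annotated start sites. The pooled list ranks 30000 regions called from all replicates together. The optimal list holds the 4410 pooled regions of highest signal, a number that the authors' procedure for repeated peaks set, and not each of them is among the top regions of every replicate. Signal is the peak caller's own enrichment value for a peak. It has no absolute unit, differs in scale between lists, and serves here to order peaks of the same list. The regions of low rank in the pooled and replicate lists include background and are not calls. Depth per replicate is unknown, because the lists hold no read counts.

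Most peaks at the members sat in short stretches rich in A and T. They were mostly intergenic and mostly between the start of the member and the start of a neighbour read the other way. More A and T than in the flanking sequence was found at 13 of the 15 member peaks, and also at 76.6% of all peaks near any start site. The 6 strongest member peaks that could be shown without transcribed sequence are printed next, because the A and T content and the repeated words described further on can be read from them directly. The strongest peak, at mRpL41, is not among them, and neither are the other 2 windows that hold a known promoter motif, at mRpL18 and mRpL54, since sequence of their chromosome arm is not shown here. Each line runs from 5′ to 3′ on the strand of the member, covers up to 50 bp on each side of the summit, and comes from the RefSeq Release 6 genome, which has dm6 coordinates. Capitals mark the 5 words of 6 bases, on either strand, whose share of windows rose most at the summits of all other optimal peaks. They are TTAAAA (32.7% of summit windows against 12.6% of flanking windows), AAATAT (31.9% against 13.4%), AAAATA (35.7% against 18.03%), ATTTTA (29.0% against 11.3%) and ATTTAA (28.4% against 11.2%). The positions are chr3R:15229487-15229587 (plus strand) for mRpS10, chr2L:13835413-13835513 (minus) for mRpS23, chr2L:4850550-4850640 (minus) for mRpS2, chr2L:4945424-4945524 (minus) for mRpL24, chr3L:13018084-13018184 (minus) for mRpL20 and chr3L:4364403-4364503 (plus) for mRpS6. The window of mRpS2 is 91 bp long, since its far end reached an exon of the neighbouring gene.
mRpS10: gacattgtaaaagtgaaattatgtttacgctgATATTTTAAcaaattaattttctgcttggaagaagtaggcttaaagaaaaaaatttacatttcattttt
mRpS23: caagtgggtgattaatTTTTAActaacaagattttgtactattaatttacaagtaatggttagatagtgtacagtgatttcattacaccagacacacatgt
mRpS2: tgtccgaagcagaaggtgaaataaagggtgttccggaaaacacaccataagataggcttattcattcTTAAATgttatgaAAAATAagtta
mRpL24: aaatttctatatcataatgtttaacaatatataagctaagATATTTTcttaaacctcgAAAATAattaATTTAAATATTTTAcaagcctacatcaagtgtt
mRpL20: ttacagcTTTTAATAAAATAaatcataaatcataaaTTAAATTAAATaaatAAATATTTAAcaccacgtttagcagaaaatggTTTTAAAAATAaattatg
mRpS6: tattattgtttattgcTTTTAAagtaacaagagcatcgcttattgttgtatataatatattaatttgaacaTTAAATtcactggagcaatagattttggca

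Of the 73 members, 15 were bound (20.5%), against 14% of all protein-coding genes. The bound large-subunit genes numbered 9 of 47 (19.1%): mRpL41, mRpL23, mRpL24, mRpL20, mRpL18, mRpL54, mRpL34, mRpL2 and mRpL4. The bound small-subunit genes numbered 6 of 26 (23.1%): mRpS10, mRpS23, mRpS2, mRpS6, mRpS26 and mRpS22. Proteins with a counterpart in bacterial ribosomes made up 10 of the 15, which is 21.7% of the 46 such members. Proteins particular by textbook knowledge to mitochondrial ribosomes made up the other 5, mRpL41, mRpL54, mRpS22, mRpS23 and mRpS26, which is 18.5% of 27. The optimal list thus held members of both subunits and both origins. The order of the shares was the same in the other lists, while the distance between them varied. Among the top regions of all 3 replicates were 8 members with a bacterial counterpart (17.4%) and 2 without (7.41%). A pooled region of any rank was found at 43.5% and 29.6% of them, and at 34.0% of large-subunit and 46.2% of small-subunit members. These differences were not tested.

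The shares were also read in each replicate, cut to its 4410 strongest regions, the length of the optimal list. In replicate 1, 15 members had a summit within 500 bp, against 15.1% of protein-coding genes. In replicate 2 the count was 15, against 14.4%, and in replicate 3 it was 13, against 14.2%. The mean share of members over the replicates was 19.6% ± 1.58 (SD, n = 3), and that of protein-coding genes was 14.6% ± 0.491. The members' share was above the genome's in 3 of 3 replicates. In all 3 replicates at once, 10 members had such a summit (13.7%), against 9.81% of protein-coding genes. With regions of any rank counted, the lists differed. In the pooled list the shares were level, with 28 members (38.4%) against 38.8%. In the replicate lists the members' share was higher, with 41 members in replicate 1 (56.2% against 47.2%), 39 in replicate 2 (53.4% against 42.2%) and 33 in replicate 3 (45.2% against 37%). A region of any rank in every replicate was found at 22 members (30.1%), against 24.7%.

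Among the members, 4 peaks stood far above the rest. In the ranking of the whole optimal list they held ranks 12, 20, 22 and 44, and the next member peak held rank 464. The fourth signal was 2.63 times the fifth. These 4 were 26.7% of the member peaks, whereas 31 of the 1712 peaks near any start site (1.81%) ranked among the first 50, a limit chosen after the ranks were seen. With wider limits the contrast was smaller. The strongest 10% of the optimal list held 26.7% of member peaks and 14.5% of promoter peaks, and the strongest 20% held 40% and 25.6%.

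**Figure D1:**
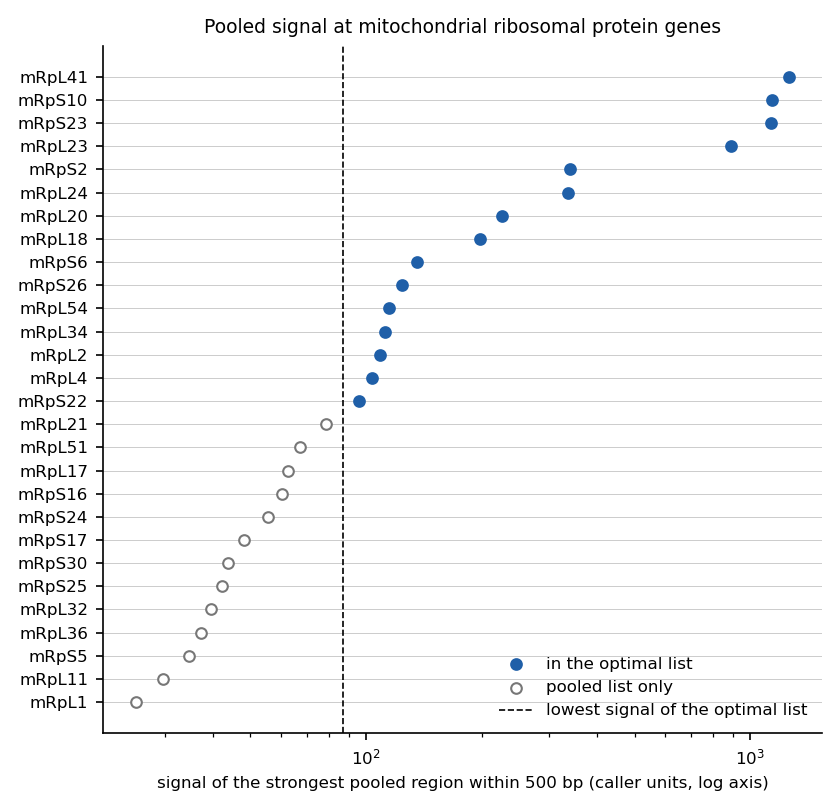
Signal of the strongest pooled region within 500 bp of a start site (log axis) for each of the 28 members that had one. Filled points are the 15 members in the optimal list, and the 4 at the top lie between 889 and 1263, apart from the next at 338.

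The strongest peak belonged to mRpL41 (FBgn0034001), a large-subunit protein with no bacterial counterpart. Its signal was 276 in replicate 1, 591 in replicate 2 and 399 in replicate 3, and 1263 in the pooled list. These values placed it between rank 8 and rank 14 in every replicate. The summit lay 130 bp upstream of the only annotated start, in intergenic sequence of arm 2R. mRpL41 was 1 of only 2 bound members with no divergent neighbour: the other nearby start, of the noncoding gene lncRNA:CR44463, is read in the same direction.

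mRpS10 (FBgn0038307) encodes the small-subunit counterpart of bacterial S10. Its signal was 221, 576 and 348 in replicates 1, 2 and 3, and 1140 in the pooled list. The ranks were 32 in replicate 1 and 16 in both others. The summit lay 128 bp upstream of the mRpS10 start and almost equally far upstream of the start of Art3, which encodes a protein arginine methyltransferase. It stood near the middle between the divergent starts, which are 257 bp apart.

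mRpS23 (FBgn0260407) encodes a small-subunit protein of mitochondrial ribosomes. Its signal was 263, 563 and 303 in the 3 replicates, and 1131 in the pooled list, with ranks of 16, 20 and 24. The summit lay 391 bp upstream of mRpS23 and closer to the start of its divergent neighbour CenG1A, which encodes a GTPase-activating protein of the Arf family. The starts are 492 bp apart, and the list does not tell which gene the peak serves.

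mRpL23 (FBgn0035335), the counterpart of a bacterial protein at the exit of the nascent chain, had the fourth peak. Its signal was 209.9, 419.5 and 268 in the 3 replicates, and 889 in the pooled list, with ranks of 38, 49 and 40. This was the single member peak with its summit downstream, 61 bp inside the transcribed region and in the gene's own 5′ UTR. In each replicate the summit lay downstream too, by 62 to 73 bp. The divergent neighbour CG9004 starts close by on the other strand. For all 4 strong peaks the replicates gave ranks of 8 to 49, so none of them rested on 1 library.

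The next 4 members had pooled signals between 198 and 338. mRpS2, the counterpart of bacterial S2, had 69.1, 177 and 96.7 in the 3 replicates, and 338 in the pooled list. Its summit lay 181 bp upstream, toward the divergent gene Mon1, which encodes a factor of endosome maturation. mRpL24, the counterpart of bacterial L24, had 74.6, 151 and 100.8, and 336 in the pooled list. It lay 113 bp upstream, and its neighbour is betaggt-I, which encodes the beta subunit of a protein geranylgeranyl transferase. Both peaks held ranks of 402 to 679 in every replicate.

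mRpL20, whose bacterial counterpart takes part in assembly of the large subunit, had 55.3, 112 and 53.1 in the 3 replicates and 225 in the pooled list. The summit lay 267 bp upstream, toward Icmt, which encodes the methyltransferase of prenylated proteins. mRpL18, the counterpart of bacterial L18, had 42.3, 90.0 and 58.5, and 198 in the pooled list. Its divergent neighbour starts 20 bp away, so that the summit, 105 bp upstream of mRpL18, fell within the 5′ UTR of that neighbour. The neighbour is Taz, which encodes tafazzin, the enzyme that remodels the mitochondrial lipid cardiolipin. Both genes of this pair therefore encode mitochondrial proteins.

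mRpS6, the counterpart of bacterial S6, had 31.5, 65.2 and 38.4 in the 3 replicates and 136 in the pooled list, with the summit 97 bp upstream. Its neighbour Cip4 encodes an F-BAR protein of membrane bending. mRpS26, a protein of mitochondrial ribosomes only, had 29.0 in replicate 1, 48.3 in replicate 2 and no listed region in replicate 3. Its pooled signal was 124, with the summit 260 bp upstream toward CG13698. This was the only bound member missing from a replicate's list at any rank.

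The last 5 bound members had pooled signals from 96.0 to 114, against a minimum of 87.3 in the optimal list. They were mRpL54 (114), mRpL34 (112), mRpL2 (109), mRpL4 (104) and mRpS22 (96.0). mRpL54 and mRpS22 have no bacterial counterpart, mRpL34 and mRpL4 correspond to bacterial L34 and L4, and mRpL2 corresponds to L2, which lines the peptidyl transferase centre. Their replicate ranks were far apart. For mRpL2 they were 1214, 4770 and 9666, and the summit lay in an intron of FoxK, a forkhead transcription factor gene. For mRpS22 the signals were 31.7, 34.6 and 50.5, at ranks 2868, 6054 and 1630. Of these 5, mRpL34, whose neighbour is the dystroglycan gene Dg, was the only one among the top regions of all 3 replicates.

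**Figure D2:**
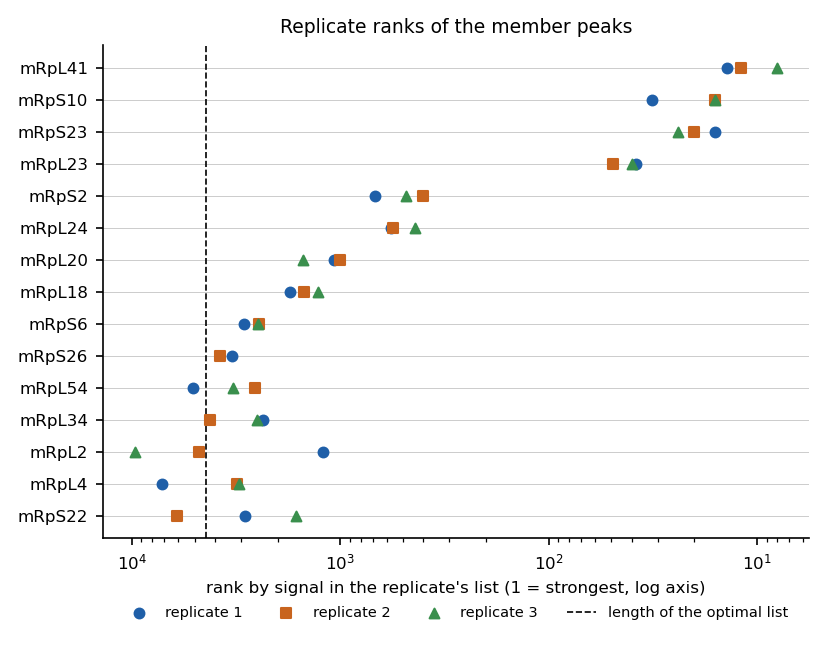
Rank by signal (log axis, 1 is the strongest) of the 15 bound members in each of the 3 replicates, with the length of the optimal list, 4410, as a dashed line. The 4 upper genes lie within ranks 8 to 49 in every replicate, the lower ones spread to both sides of the line, and mRpS26 has no point for replicate 3.

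The replicates put the bound members in a similar order. Spearman's rho of the signals was 0.807 between replicates 1 and 2 (n = 15 members), 0.877 between 1 and 3 (n = 14) and 0.908 between 2 and 3 (n = 14). The points share their libraries, and members are not replicates, so these are descriptions. The median signal of the 15 member peaks was 198 in the optimal list, against 157 for the 1712 peaks near any start site. For the 7 peaks whose nearest start is the member's own, the median was 136, which is below 157. These 7 ran from 96.0 to 1263 and included the strong peaks of mRpL41, mRpS10 and mRpL23. The direction of the median thus changed with the peaks kept, and a median of so few peaks moves easily. In replicate lists the member median was 1.36, 1.19 and 1.21 times that of promoter regions (mean 1.26 ± 0.0904, SD, n = 3).

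The members that were not bound numbered 58. By pooled signal the highest of them were mRpL21 (78.8, rank 5002), mRpL51 (67.2), mRpL17 (62.6), mRpS16 (60.4) and mRpS24 (55.5). mRpL21, just under the optimal minimum, had 13.5, 42.1 and 19.1 in the 3 replicates and was among the top regions of none. In all, 13 of the 58 (22.4%) had a pooled region of any rank, against 28.9% of unbound protein-coding genes. Their pooled signals ran from 25.1 to 78.8 with a median of 43.8. None of the 58 had an optimal summit within 1000 bp, and 14 had one within 5000 bp. Over all protein-coding genes the share with an optimal summit within 1000 bp was 16.97%, little above their share within 500 bp. The share within 5000 bp over unbound protein-coding genes is not given here. Neither count is therefore shown to be particular to the members. The median distance to the nearest optimal summit was 9292.5 bp for unbound members and 12153.5 bp for unbound protein-coding genes. With every list and rank counted, 54 of the 73 members had a region (74.0%), against 62.2% of protein-coding genes. The other 19 members had none.

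A further 3 unbound members reached the top regions of some replicate. mRpS7, the counterpart of bacterial S7, had 35.9 at rank 2329 in replicate 1 and 50.5 at rank 3563 in replicate 2. It had no listed region in replicate 3 or in the pooled list. mRpL51 reached rank 3752 in replicate 2, and mRpL44 reached rank 4366 in replicate 1. None was at the top of all 3.

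By chromosome arm, the bound members were 4 of 12 on 2L, 4 of 12 on 2R, 5 of 17 on 3L and 2 of 21 on 3R. Over all arms together 14% of protein-coding genes were bound. Their share on each of these autosomal arms is not given here, so the counts do not order the arms. On the X none of 11 was bound, which allows a share of up to 27.3% by the limit of 3 counts. Of the 2196 protein-coding genes on the X, 13.6% were bound, so the 11 members are too few to show a lower share. The X members with a pooled region were mRpS30 and mRpS25. The arms were looked at after the values were seen.

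Most mitochondrial ribosomal protein genes share their promoter region with another gene. A start of another gene on the opposite strand lay 1 to 500 bp upstream of 53 of the 73 members (72.6%), against 29.6% of protein-coding genes. Among members with such a divergent start, 13 of 53 were bound (24.5%), against 25.1% of protein-coding genes with one. Among members without one, 2 of 20 were bound (10%), against 9.34%. In the optimal list the member shares and the background therefore lay within 1 percentage point of each other in both classes, while the overall shares were 20.5% and 14%. Among the top regions of replicates 1, 2 and 3, divergent members had shares of 26.4%, 24.5% and 20.8%, against 26.7%, 25.9% and 26.1%. The other members had 5%, 10% and 10%, against 10.2%, 9.52% and 9.16%. In the top regions of all 3 replicates the shares were 16.98% against 17.9% for divergent genes and 5% against 6.42% for the others. A pooled region of any rank was found at 43.4% against 47.4% and at 25% against 35.2%. In none of these lists was a class of members above its background by more than 1 percentage point. Replicate regions of any rank, where the members' share was higher, were not split into these classes. Of the bound genes, 86.7% of members and 53.1% of protein-coding genes were divergent.

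**Figure D3:**
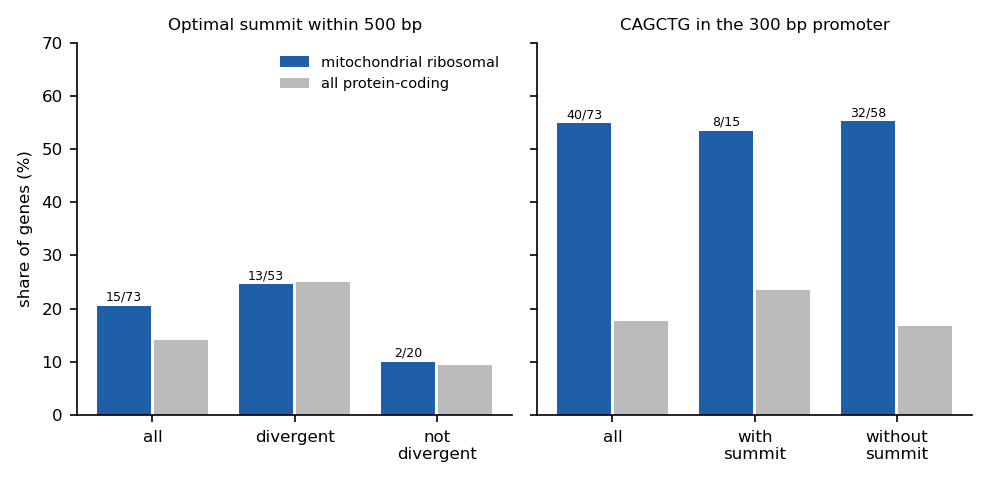
Left, share of genes with an optimal summit within 500 bp (%) among mitochondrial ribosomal protein genes and all protein-coding genes, for all genes and for those with and without a divergent start. Right, share with the word CAGCTG in the 300 bp promoter. On the left the bars are nearly level within each class, and on the right the members stand at 53.3% to 55.2% with and without a summit.

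The width of the gap between divergent starts was similar for bound and unbound members, with medians of 257 and 271.5 bp. With a gap of 1 to 100 bp, 3 of 18 members were bound (16.7%, protein-coding genes 21.7%). With a gap above 100 and up to 200 bp none of 4 was (protein-coding genes 16.9%). With a wider one, up to 500 bp, 10 of 31 were (32.3%, protein-coding genes 28.9%). The counts per class are too small to order the members by gap.

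The median position of the 15 summits was -130 bp from the member's start, with negative values upstream. Over all promoter peaks it was -123 bp from the nearest start. Of the member summits 14 were upstream of the member's start, and 79.0% of promoter summits were upstream of their nearest start. These measures are unlike, because for 8 member summits the start of another gene was nearer. The members and all promoter peaks cannot be ordered by them. The member's start and a divergent start of the neighbour enclosed 11 of the 15 summits. For 1 of these, mRpL2, the enclosing start is the farther one of FoxK, at -436 bp, and the summit lies beyond the nearest FoxK start, 64 bp away. The start nearest to the summit was the member's in 7 cases and that of another gene in 8. Intergenic sequence held 12 summits, and the other 3 were in the 5′ UTR of mRpL23, in that of Taz and in an intron of FoxK. For enclosed, nearest and intergenic summits the shares over all promoter peaks are not given here. These positions are therefore not shown to be particular to the members.

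**Figure D4:**
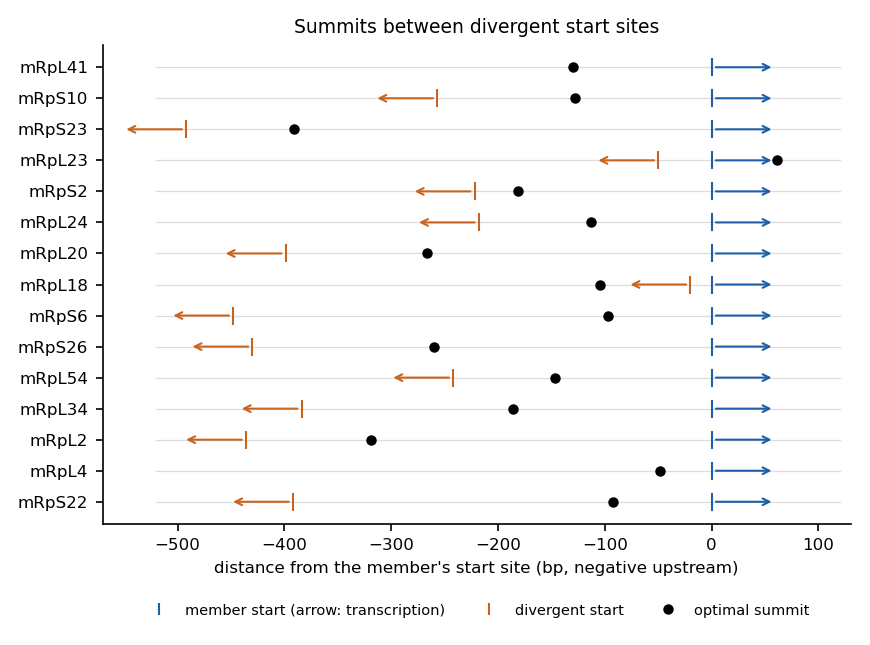
Position of the optimal summit (black) relative to the start of each bound member (blue, position 0, negative upstream) and to the start of its divergent neighbour (orange), in bp. In 11 of 15 rows the summit lies between both starts drawn (for mRpL2, the farther start of FoxK), and mRpL23 is the only row with it downstream.

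At the 15 summits 70.9% ± 8.70 (SD) of the bases within 50 bp were A or T, and in windows 300 bp to either side 53.4% were. The rise was 17.5 percentage points ± 11.6 (SD, n = 15 peaks). A rise was seen at 13 of the 15 member peaks and at 76.6% of all promoter peaks. Over all promoter peaks the summits had 65.8%, the flanks 55.6%, and the rise was 10.3 points. From the summits called in each replicate the rise at members was 15.2, 15.2 and 19.7 points (mean 16.7 ± 2.58, SD, n = 3). The chromosome arms hold 57.8% A or T. The exceptions were mRpS23, whose flanks are as rich as its summit (difference of -0.495 points), and mRpL4 (-4.95 points).

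In a fixed window upstream of the start, the A and T content was alike in bound and unbound members. This window is unlike the one centred on the summit, and some summits lie outside it, such as that of mRpS23 at -391 bp. The rise over the flanks was not measured at unbound members. In the 150 bp upstream of the start, bound members had 69.7% ± 9.31 (SD, n = 15) and unbound members had 69.7% ± 8.87 (SD, n = 58). All protein-coding genes had 64.1%, and the bound ones among them had 66.9%. A base composition above the average was thus seen upstream of members with and without a peak.

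**Figure D5:**
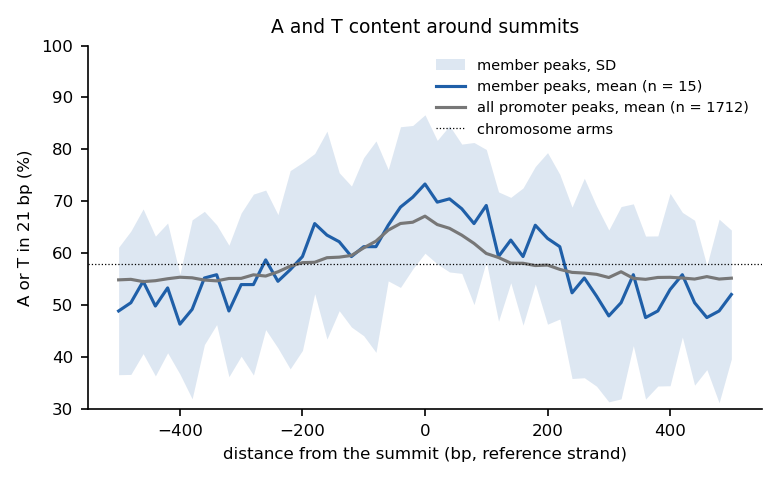
Mean share of A and T in windows of 21 bp (%) against the distance from the summit (bp), for the 15 member peaks with their SD and for all 1712 promoter peaks. Both curves are highest at the summit and fall to below the dotted line of the chromosome arms, 57.8%, at 300 bp and beyond.

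The words marked in the sequences above were ranked on the 4395 optimal peaks that are not at members, so the member windows did not choose them. At least 1 of the 5 was in 13 of 15 member summit windows (86.7%), in 72.1% of the other promoter peaks and in 36.7% of the member flanks. TTAAAA was in 8 member windows (53.3%, other promoter peaks 34.2%) and AAAATA in 9 (60% against 38.3%). AAATAT was in 7 (46.7% against 32.6%) and ATTTAA in 7 (46.7% against 29.4%). ATTTTA, in 5, was near the share of other promoter peaks (33.3% against 30.2%). mRpL20 carried the most marked bases of the windows printed, 45, and mRpS10 and mRpS23, with far stronger peaks, carried 9 and 6. Among these windows the number of such words did not follow the signal.

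Known promoter motifs were rare at the summits. The search covered 8 motifs on both strands. For housekeeping promoters these were TATCGATA, the DRE bound by DREF, and GGTCACAC, the core of Motif 1 bound by M1BP, together with CANCNCTA, known as Motif 7. For E-boxes they were CACGTG, which is the site of Myc and Max in many animals, and another E-box of this class with different middle bases, CAGCTG. The remaining ones were GCGCATGC of the NRF-1 family, GAGAGAG as the site of the factor encoded by Trl, and finally the site of the zinc finger factors named after it, GATAAG. The letters of these motifs do not contain one another. Any of them was in 3 of 15 member windows reaching 50 bp to each side of the summit (20%), against 17.7% of promoter peaks. These were CAGCTG at mRpL18, CANCNCTA at mRpL54 and GATAAG at mRpL41. A match is a run of letters and not evidence of a bound factor.

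In the promoters, by contrast, 1 motif was common among members whether or not they carried a peak. CAGCTG was in the 300 bp promoter, 250 bp before to 50 bp after the most upstream start, of 40 of the 73 members (54.8%), against 17.7% of protein-coding genes. It was in 8 of 15 bound members (53.3%) and in 32 of 58 unbound ones (55.2%). Divergent members held it in 54.7% of cases and the others in 55%, while the shares over protein-coding genes were 24.4% and 14.8%. Cytoplasmic ribosomal protein genes held it in 9 of 93 cases (9.68%). Other nuclear genes of mitochondrial gene expression held it in 23 of 43 (53.5%).

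The word lay close to the start. Over the 45 occurrences in members the median position was 5 bp downstream, with quartiles of -31 and 19, and 36 of 45 (80%) were within 50 bp of the start. Over protein-coding genes 51.2% of the occurrences were that near, and the median position was -48. A member had the word within 50 bp of its start in 47.9% of cases, against 9.55% of protein-coding genes and 7.53% of cytoplasmic ribosomal protein genes. The other genes of mitochondrial gene expression had it there in 21 of 43 cases (48.8%), so the position was not particular to the ribosomal set. Bound and unbound members were alike in this count, 7 of 15 (46.7%) and 28 of 58 (48.3%). In the bound members the word lay 40 to 332 bp from the summit, with a median of 118.5 bp.

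The next lines show this word, in capitals, at the start of bound and unbound members, because its share was alike in both. The strand is that of the member and the build is as above. The bound members are mRpL2 (chr3L:11120845-11120874, plus), mRpL24 (chr2L:4945324-4945353, minus), mRpS2 (chr2L:4850413-4850442, minus) and mRpS6 (chr3L:4364552-4364581, plus). The unbound ones are mRpL21 (chr3L:19255067-19255096, minus), mRpL17 (chr3L:264780-264809, plus) and mRpS24 (chr3R:24163508-24163537, minus).
mRpL2: aacgccgcgtaaCAGCTGttttcagccgca
mRpL24: ttcagttctcaaCAGCTGattgcaagccgc
mRpS2: aacactacccacCAGCTGtttaccaaaatc
mRpS6: ctttccttgcatCAGCTGttaacactatca
mRpL21: cgcatgctaacaCAGCTGttcgaaaacgcg
mRpL17: ataaatggtcgcCAGCTGttcggcgaatgt
mRpS24: cgtcacgtcaatCAGCTGttgctggacgca

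Of the other motifs, TATCGATA was in 15 member promoters (20.5%), 3 of 15 bound and 12 of 58 unbound, against 9.36% of protein-coding genes. GGTCACAC was in none of the bound and 8 of the unbound members, in all 10.96% against 7.70%. CANCNCTA was in 16 members (21.9%, protein-coding genes 15.6%) and GATAAG in 14 (19.2%, protein-coding genes 18.9%). CACGTG was in 5 (6.85% against 4.202%). GCGCATGC was in 1 (1.37% against 1.05%), and GAGAGAG was also in 1 (1.37%), below the 5.87% of protein-coding genes.

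Other nuclear genes of mitochondrial gene expression, which encode transcription, RNA processing, translation and tRNA charging factors, were listed by 51 symbols, of which 43 are in the annotation. Of these 43, 5 were bound (11.6%), against 20.5% of the members and 14% of protein-coding genes. PNPase, a polynucleotide phosphorylase that degrades RNA, stood far above the rest with 260, 499 and 339 in the 3 replicates and 1101 in the pooled list, 71 bp downstream of its start. Its rank of 23 places it right after mRpS23. The other 4 had pooled signals of 128 for ArgRS-m, the mitochondrial arginyl-tRNA synthetase, 117 for mTerf5 of the mitochondrial transcription terminator family, 103 for the tRNA 3′ processing enzyme RNaseZ and 98.2 for scu, a dehydrogenase that also belongs to mitochondrial RNase P. tko and bonsai, which encode the counterparts of bacterial S12 and S15, were not bound. GatA, a subunit of the enzyme that makes glutaminyl-tRNA in mitochondria, was among the top regions of all 3 replicates (41.3, 55.1 and 58.7) and had no pooled region within 500 bp, and it was singled out after its values were seen.

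The cytoplasmic ribosomal protein genes, which serve the other ribosome of the cell, were bound in 53 of 93 cases (57.0%), with a median signal of 156. Of these 93 genes 41.9% had a divergent start, fewer than the 72.6% of the mitochondrial set. The median signal of bound members was 198, and it was 136, below the cytoplasmic value, for peaks whose nearest start is the member's own. The share of genes bound was lower among members. No test of these differences was made.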

How the data were processed

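ChIP-seq peak lists from 3 biological replicates of 1 group were used. Per the labels, chromatin was sonicated to 200 to 800 bp. The deposited signal value of each peak is the authors' peak caller's, on a scale that differs between lists. The authors deposited a list per replicate and a pooled list (30000 regions each) and an optimal list of 4410 peaks, on dm6, which are exactly the 4410 pooled regions of highest signal. Aligner, peak caller and thresholds were not given in the sources used here. In 2 optimal peaks the summit lies beyond the peak end, and both were kept.

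Start sites (23998, of 18164 genes) came from Ensembl release 115, without transposable elements, and sequence from the RefSeq genome, with Python 3.11.15, pandas 2.3.3 and numpy 2.4.6. The assignment of summits to start sites was tested on simulated data. With 1 group and no control there is no test and no p-value. The genes and lists were chosen with earlier results of these data known, and the split by bacterial counterpart was made from textbook knowledge after the values were seen. Every bound member is named, the 10 of highest pooled signal with all replicate values, and the 5 highest unbound ones. mRpS7, mRpL44 and the last bound members' replicate values were singled out after they were seen. Alternatives changed the distance, list length, peak assignment, start sites, window width and replicates. The lists for dm3 were not used.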

Additional observations from a re-analysis of the deposited data

How the results depend on the processing

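Of 59 alternatives to the values above, 43 stayed within 1.5 times the count or within the spread and 16 moved. Counts and signals cannot change sign. The median distance and the rise in A and T could, and neither did. With only the 2205 strongest optimal peaks, 8 members were bound (10.96%, protein-coding genes 8.28%), 5 of them large-subunit, 3 small-subunit and 7 divergent, beside 1 other mitochondrial and 28 cytoplasmic ribosomal protein genes. With a start required inside the peak, 9 members were bound (12.3%, protein-coding genes 8.03%), 3 of them small-subunit and 7 divergent. With optimal peaks found among the top regions of all 3 replicates, 3 other mitochondrial genes remained and the median member signal was 337. Within 200 bp, 11 members were bound (15.1%, protein-coding genes 9.00%) and 6 were at the top of all 3 replicates. Leaving out a replicate gave 11 to 12 members at the top of both others, in place of 10 at the top of all 3. The median signal was 136 for peaks nearest to a member's own start, below the 157 of promoter peaks, whereas the main value of 198 is above it. The rise in A and T was 20.2 points with 25 bp on each side and 14.3 points with 100 bp. Windows reaching 150 bp to each side held a motif in 10 members (66.7%, promoter peaks 57.1%). The members' share of bound genes was above that of protein-coding genes in each alternative rule for calling a gene bound. No paired analysis was possible because there is 1 group. Depth is unknown, so counting error cannot be given. The 5 weakest bound members lie within 1.31 times the optimal minimum.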
